A study of Mus musculus with 10 samples.

Results

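Malat1, Neat1, Meg3, Rian, Miat and Snhg11 are long noncoding RNA genes that were taken by name, selected on their measured levels in earlier results of these libraries, and all 6 of the 6 listed genes were present among the 11702 genes of the count table. The reference transcripts name 50 transcripts of these genes among the 275112 transcripts that were quantified. Each library spent 0.414% to 0.680% of its gene counts on the 6 genes, with 755 to 2835 counts on Neat1 and 36066 to 130318 counts on Meg3.

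Retinal RNA of female mice was sequenced in 10 libraries. Mice of the rd10 strain B6.CXB1-Pde6brd10/J carry a mutation of Pde6b, the beta subunit of the rod phosphodiesterase, throughout the body, and lose their rods in early life. The 3 rd10 DMSO libraries (D1 to D3) and the 3 rd10 HAL libraries (H1 to H3) came from rd10 mice, and the 4 WT libraries (W1 to W4) are labelled as coming from mice of wild-type genotype that received DMSO. Every eye was injected into the vitreous with 1 μL of DMSO or of 20 μM halofantrine, an antimalarial drug, at P10 and P24, and retinas were collected at P36. No group was left uninjected, so the vehicle and the injections are shared by every group. Batch 2 of the labels is made of D3 with H2 and H3, and the other 7 libraries form batch 1. The sample titles also carry set names whose meaning is not given in the sources used here: set1 for W1 to W3, set1_5 for W4, set2 for D1, D2 and H1, last for H2 and H3 and final for D3. Genotype and set therefore cannot be told apart, within batch 1 too. Within batch 2, treatment and set coincide as well, so a batch term does not part them there. The labels do not say whether a library holds 1 retina or several, so the p-values measure the spread between these libraries. The molecule is labelled polyA RNA and the libraries keep the strand.

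Library depth was 15512212 to 38160436 gene counts. The library labelled WT W4 went against its label. It held Pde6b at 93.1 CPM (counts per unit of library total, scaled by TMM), where W1 to W3 held 2699 to 2855 CPM and the rd10 libraries 125 to 387 CPM. Its 14 rod marker genes summed to 3284 CPM, and those of W1 to W3 to 81460 to 85733 CPM. Comparisons of the 6 genes and their transcripts with WT are therefore given with all 4 WT libraries and again without W4. Those of the gene lists are given without W4, with some of the values with W4 beside them. The retina's own cell types were present in each library: no bipolar, amacrine, ganglion, horizontal or Müller glia marker in the table stood at 0 throughout. In such bulk samples, fewer cells of a type and less RNA per cell cannot be told apart.

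Long noncoding RNAs of this kind act as RNA, many of them inside the nucleus. Malat1 is among the most abundant nuclear RNAs and gathers at nuclear speckles, which store splicing factors. Neat1 is made in a short, polyadenylated form and a long form, and the long form is the scaffold of paraspeckles, nuclear bodies that hold RNA-binding proteins. Miat, also called Gomafu, forms its own nuclear spots in neurons, the retina included, and carries repeats that match the branch point used in splicing. Meg3 and Rian are transcribed from the maternal chromosome of the imprinted Dlk1-Dio3 region, and Rian hosts small nucleolar RNAs and microRNAs. Snhg11 is a host gene of small nucleolar RNAs that is best known from neurons.

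The ends of Malat1 and of long Neat1 are shown because both are cut by RNase P instead of receiving an added poly(A) tail, while the libraries are labelled polyA RNA. Capitals mark a 12-base and an 11-base stretch that both transcripts share, the kind of sequence that folds into a protective triple helix. The sequences are those of the GENCODE M21 reference transcripts, in DNA letters, 5′ to 3′.
Malat1-201, bases 6644 to 6700 of 6983: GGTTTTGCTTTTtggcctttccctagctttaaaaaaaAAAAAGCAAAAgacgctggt
Neat1-201, bases 20712 to 20771 of 20771: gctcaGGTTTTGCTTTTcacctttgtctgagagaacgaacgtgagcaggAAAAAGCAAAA
Searched over 141767 reference transcripts on the transcript strand, GGTTTTGCTTTT occurred in 91 and AAAAAGCAAAA in 618. Both stretches in this order, with at most 60 bases between them, occurred in 2 transcripts, which were Malat1-201 and Neat1-201.

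The last 60 bases of the short Neat1 transcript and of the main Meg3 transcript are shown for contrast, with the polyadenylation signal AATAAA in capitals. AATAAA was found in the last 60 bases of 27.2% of 141515 reference transcripts.
Neat1-202, bases 2945 to 3004 of 3004: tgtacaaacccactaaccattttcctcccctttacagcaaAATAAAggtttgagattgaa
Meg3-209, bases 14489 to 14548 of 14548: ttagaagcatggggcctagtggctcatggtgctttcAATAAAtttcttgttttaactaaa
The first 60 bases of Neat1-202 lie at base 3 of Neat1-201 and its last 60 bases end at base 3172. The short form is not found there as an unbroken stretch, and the 17599 bases after its end belong to the long form alone. Reads of the shared stretch had to be divided between the transcripts by the estimate.

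The repeats of Miat are shown because they are the feature by which its binding partners are known. Capitals mark TACTAAC, which occurred 6 times in Miat-201 on the transcript strand, and this window holds 3 of them.
Miat-201, bases 5171 to 5245 of 8758: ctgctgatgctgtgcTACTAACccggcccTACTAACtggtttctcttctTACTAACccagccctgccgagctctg
Of 497 reference transcripts within 500 bases of its length, 18.3% held TACTAAC at least once, and Miat-201 and Miat-205 were the only 2 that held it 6 times or more.

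The promoter of Meg3 is shown because the levels of Meg3 and its neighbour Rian were the most alike of any pair of the 6 genes over the libraries. RefSeq sequences in build GRCm38.p6 matched 5 of the 6 genes, with Neat1 unmatched, and the window of Rian starts 62949 bases after that of Meg3. The window runs from 250 bases before to 50 after the start site. Capitals mark the CCAAT box, the cAMP response element TGACGTCA and 2 overlapping matches of TATAAA, one per strand. Both strands were searched for these and for the half-site of that element (TGACG), which it overlaps, and the GC box (GGGCGG).
Meg3, chr12:109540746-109541045, plus strand: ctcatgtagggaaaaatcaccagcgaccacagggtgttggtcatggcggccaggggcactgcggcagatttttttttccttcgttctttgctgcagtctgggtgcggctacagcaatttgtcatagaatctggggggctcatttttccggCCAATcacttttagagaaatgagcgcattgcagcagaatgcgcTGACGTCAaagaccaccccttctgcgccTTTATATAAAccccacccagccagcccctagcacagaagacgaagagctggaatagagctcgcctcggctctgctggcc
TGACGTCA begins at -57 relative to the start site, TATAAA at -25 and CCAAT at -100. Of 32851 promoter windows of this length, 1.79% held TGACGTCA, 13.6% held TATAAA and 37.4% held CCAAT. Among the 6 windows of the 5 matched genes (Meg3 has 2), TGACGTCA was in this one alone.

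Levels of different genes were compared per full transcript length, which is short for Malat1-204 (656 bases) and Rian-208 (352 bases). Malat1 and long Neat1 receive no added poly(A) tail, while the libraries are labelled polyA RNA. How fully they were captured, and the part of this in the order below, was not tested. In W1 to W3 the order by CPM per kilobase was Malat1-201 (164 ± 12.1, SD, n = 3), Malat1-204 (143 ± 15.0), Rian-208 (127 ± 25.8), Meg3-209 (114 ± 7.12), Snhg11-201 (90.3 ± 6.29), Snhg11-205 (31.9 ± 2.66), Rian-202 (18.6 ± 2.01), Miat-201 (10.4 ± 0.822), Neat1-202 (6.60 ± 2.03) and Neat1-201 (0.178 ± 0.0181). Within this order the SDs of the leading Malat1, Rian and Meg3 transcripts overlapped from each to the next. In rd10 DMSO, Meg3-209 stood at 170 CPM per kilobase, above Malat1-201 at 136. Named transcripts covered 93.5% to 96.6% of the gene count of Miat and 77.2% to 86.6% of those of Malat1, Meg3 and Snhg11. They covered 44.2% to 61.2% for Neat1 and 29.0% to 45.1% for Rian, whose transcript values are therefore partial.

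**Figure D1:**
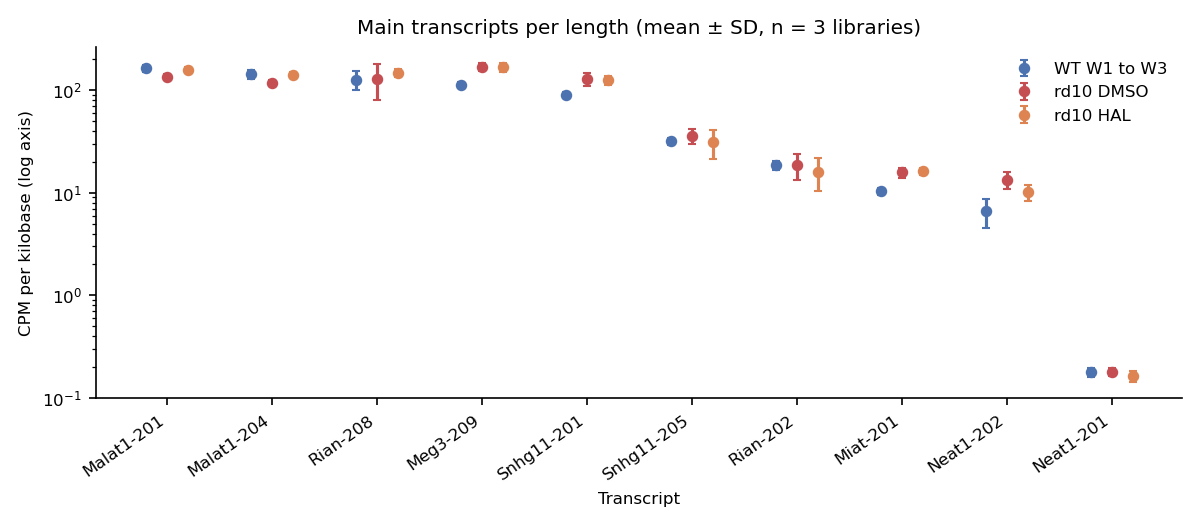
Main transcripts of the 6 genes (each with at least 5% of its gene's counts on average over the 10 libraries) on a log axis of CPM per kilobase, as mean ± SD of 3 libraries for WT W1 to W3, rd10 DMSO and rd10 HAL. Malat1-201 leads in WT at 164 and Neat1-201 is lowest at 0.178. Both lack an added poly(A) tail, and the part of polyA capture in their places was not tested.

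**Figure D2:**
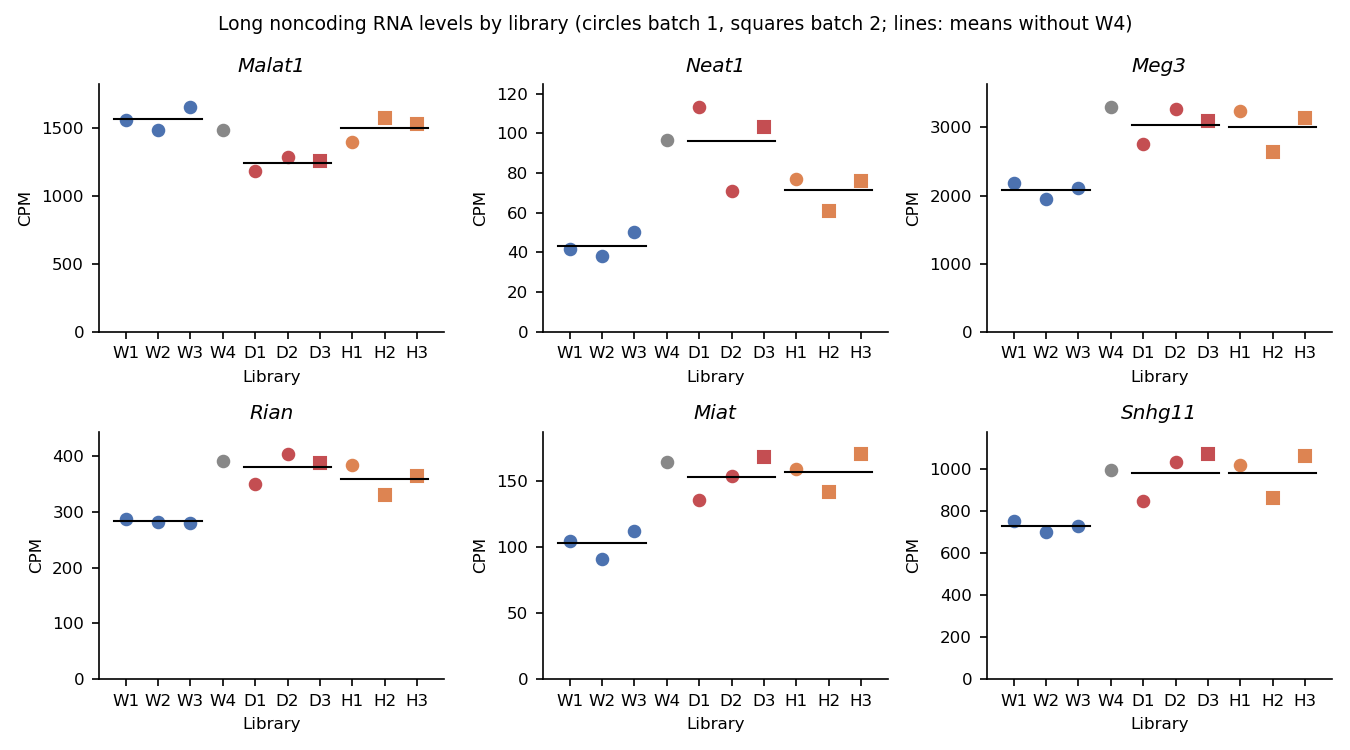
CPM of each gene in each of the 10 libraries, with circles for batch 1, squares for batch 2, W4 in grey and lines at the means of W1 to W3, D1 to D3 and H1 to H3; every vertical axis starts at 0. W4 lies outside W1 to W3 and within the rd10 range for Neat1, Miat, Snhg11 and Rian, above that range for Meg3 and within W1 to W3 for Malat1, and Malat1 is the panel in which the rd10 DMSO libraries are lowest.

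The comparison of rd10 DMSO with WT addresses what differs in the degenerating retina under vehicle. Without W4, Neat1, Meg3, Miat, Snhg11 and Rian were higher in rd10 DMSO and Malat1 was lower, and all 6 passed the test (edgeR, Benjamini-Hochberg adjusted p under 0.05 over 11696 genes). In that fit 62.2% of all genes passed, 32.3% higher and 29.9% lower, so that passing is common here. With W4 kept, 0 of the 6 genes and 0 of 11698 genes passed (0%), while 3108 genes had an unadjusted p under 0.05, and DESeq2 called 589 genes (5.04%), Malat1 and none of the other 5 among them. Since the genes were chosen with results of these libraries known, these tests describe the libraries and are no independent support.

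Malat1 was at 1562, 1487, 1656 and 1490 CPM in W1 to W4 and at 1186, 1290 and 1262 CPM in D1 to D3. All rd10 DMSO libraries lay below all 4 WT libraries, as did 5.49% of all genes, and W4 lay within the range of W1 to W3. The log2 fold change was -0.31 (SE 0.10, adjusted p = 0.187) with W4 and -0.32 (SE 0.08, adjusted p = 0.00928) without it, from 1568 ± 85.0 CPM in W1 to W3 (SD, n = 3) to 1246 ± 53.5 CPM in rd10 DMSO. This call depended on the scaling: with library sizes alone and without W4 the value was -0.11 (adjusted p = 0.215) in a fit that called 63.6% of genes, and this scaling moved the median of all genes by 0.21. Relative to the median of all genes the value was -0.31 under both scalings. This had to be so, since a change of scaling moves all genes nearly alike, and it does not test the call.

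Neat1 was at 41.6, 38.1, 50.1 and 96.7 CPM in W1 to W4 and at 113, 71.1 and 103 CPM in D1 to D3. W1 to W3 were below every rd10 DMSO library, and W4 was among them. The mean went from 43.2 ± 6.21 CPM in W1 to W3 to 95.9 ± 22.0 CPM in rd10 DMSO, a log2 fold change of 1.16 (SE 0.18, adjusted p = 0.00109) without W4 and 0.76 (SE 0.35, adjusted p = 0.191) with it. It was the largest of the 6 differences. Summed levels of 7 pigment epithelium genes (of 9 listed) also differed between these libraries, at 71.2, 56.3, 329 and 389 CPM in W1 to W4 and 693, 197 and 598 CPM in D1 to D3, and their part in the result was not tested.

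Meg3 was at 2183, 1957, 2104 and 3300 CPM in W1 to W4 and at 2753, 3269 and 3093 CPM in D1 to D3. W4 was above every rd10 library. Without W4 the mean went from 2081 ± 115 to 3038 ± 262 CPM, a log2 fold change of 0.56 (SE 0.10, adjusted p = 0.00185), and with W4 the fold change was 0.35 (SE 0.21, adjusted p = 0.246).

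Rian was at 288, 283, 281 and 393 CPM in W1 to W4 and at 351, 404 and 389 CPM in D1 to D3. W1 to W3 lay within a few CPM of each other, and W4 lay within the rd10 DMSO range. Without W4 the mean went from 284 ± 3.66 to 381 ± 27.1 CPM, a log2 fold change of 0.44 (SE 0.07, adjusted p = 0.00124), against 0.29 (SE 0.15, adjusted p = 0.203) with W4.

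Miat was at 105, 91.4, 113 and 165 CPM in W1 to W4 and at 136, 154 and 169 CPM in D1 to D3. Without W4 the groups did not overlap, and the log2 fold change was 0.58 (SE 0.10, adjusted p = 0.0021), against 0.37 (SE 0.21, adjusted p = 0.227) with W4. Snhg11 was at 754, 698, 727 and 996 CPM in W1 to W4 and at 846, 1032 and 1070 CPM in D1 to D3. Its fold change was 0.45 (SE 0.10, adjusted p = 0.00661) without W4 and 0.31 (SE 0.16, adjusted p = 0.215) with W4. For these 5 genes W1 to W3 were below every rd10 DMSO library, as for 33.6% of all genes. All 6 calls were kept with any further library left out beside W4, which includes the fit on batch 1 alone, where genotype and set still coincide.

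The rd10 HAL libraries were compared with the same WT libraries, so this comparison shares its controls with the one above. Without W4, Neat1, Meg3, Miat, Snhg11 and Rian were higher in rd10 HAL, 5 of 6 genes called in a fit that called 71.9% of all genes (35.7% higher and 36.2% lower). With W4, 0 of the 6 genes passed, as 1 gene of 11699 did (0.00855%), although 4050 had an unadjusted p under 0.05 and DESeq2 called 2221 genes (19%) with none of the 6 among them.

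Malat1 was at 1401, 1573 and 1530 CPM in H1 to H3, which overlaps the WT libraries. Its log2 fold change against WT was -0.06 (adjusted p = 0.480) without W4 and -0.04 (adjusted p = 0.725) with it, and with library sizes alone it turned to 0.15 without W4 and 0.11 with it, which relative to the median of all genes is -0.05 and -0.03. Neat1 was at 76.8, 60.9 and 75.9 CPM in H1 to H3, all above W1 to W3 and all below W4. Its fold change was 0.72 (SE 0.12, adjusted p = 0.000526) without W4 and 0.33 (SE 0.33, adjusted p = 0.443) with it, and the pigment epithelium sum was 272, 163 and 197 CPM in H1 to H3. The part of the pigment epithelium genes was not tested.

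Meg3 was at 3245, 2634 and 3133 CPM in H1 to H3, a log2 fold change of 0.53 (SE 0.10, adjusted p = 0.000942) without W4 and 0.33 with it. Rian was at 385, 331 and 365 CPM, a fold change of 0.34 (SE 0.06, adjusted p = 0.00122) without W4 and 0.21 with it. Miat was at 159, 142 and 170 CPM, a fold change of 0.61 (SE 0.09, adjusted p = 0.000266) without W4 and 0.41 with it. Snhg11 was at 1017, 863 and 1062 CPM, a fold change of 0.43 (SE 0.09, adjusted p = 0.00173) without W4 and 0.30 with it. The 3 HAL libraries of each of these genes lay above W1 to W3, as for 37.6% of all genes. The 5 calls were kept with any further library left out beside W4.

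The comparison of rd10 HAL with rd10 DMSO addresses the effect of halofantrine. None of the 6 genes passed: edgeR called 0 of 11692 genes (0%), with an unadjusted p under 0.05 for 557 of them, and DESeq2 called 3 (0.0257%). Malat1 was higher in each HAL library (1401 to 1573 CPM) than in each DMSO library (1186 to 1290 CPM), as were 6.91% of all genes. Its log2 fold change was 0.27 (SE 0.07, unadjusted p = 0.0047, adjusted p = 0.883), or 0.24 with batch as a term (adjusted p = 0.268), and the DESeq2 adjusted p was 0.206. Within batches the difference of mean log2 CPM was 0.18 in batch 1 (1 HAL and 2 DMSO libraries) and 0.30 in batch 2 (2 HAL and 1 DMSO libraries), where treatment and set cannot be told apart. The 14 rod, 9 cone, 5 endothelial and 3 blood genes tested were also all at higher estimates in HAL, with medians of 0.17, 0.10, 0.10 and 1.45 and none called. The sums overlapped between HAL and DMSO in each of these lists, at 4174 to 10246 and 4412 to 12068 CPM for rod genes and 11.8 to 96.5 and 15.5 to 30.8 CPM for blood genes, and their part in the Malat1 difference was not tested.

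Neat1 was at -0.43 in HAL relative to DMSO (SE 0.18, unadjusted p = 0.0454, adjusted p = 0.883), with overlapping libraries. It was at -0.22 and -0.60 within batches 1 and 2, and treatment and set coincide in batch 2. The 7 pigment epithelium genes were all at lower estimates in HAL, with a median log2 fold change of -0.78 and none called, and their sums were 693, 197 and 598 CPM in D1 to D3 and 272, 163 and 197 CPM in H1 to H3. Their part in the Neat1 difference was not tested. Meg3, Miat, Snhg11 and Rian had log2 fold changes of -0.02 (SE 0.10), 0.04 (SE 0.10), -0.01 (SE 0.11) and -0.08 (SE 0.08), and their libraries overlapped. Within batch 1 these 4 genes were at 0.03 to 0.14 and within batch 2 at -0.16 to -0.11, with signs that turned between the batches.

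Between the batches of rd10 libraries 0 of the 6 genes were called, in a fit that called 4.78% of 11692 genes (12.2% by DESeq2). The count of all genes called, 559 in that fit, went from 88 to 2635 when 1 library was left out and was 218 without the treatment term. Log2 differences of batch 2 from batch 1 were 0.09 for Malat1, -0.00 for Neat1, -0.07 for Meg3, 0.09 for Miat, 0.05 for Snhg11 and -0.05 for Rian. Of the 10 main transcripts, Rian-202 and Snhg11-205 did not overlap between these batches. Rian-202 was at 50.5 to 52.8 CPM in batch 1 and 26.3 to 34.8 CPM in batch 2, and Snhg11-205 at 45.2 to 56.6 and 26.9 to 44.8 CPM. The 14 rod genes were all called higher in batch 2, with a median log2 difference of 1.20 and sums of 8606 to 12068 CPM against 4174 to 4556 CPM in batch 1, and their part in these differences was not tested. All libraries of batch 2 lay below those of batch 1 for 7.36% of the tested transcripts. The log2 difference was -0.81 for Rian-202 (SE 0.12, adjusted p = 0.317) and -0.46 for Snhg11-205 (SE 0.22, adjusted p = 0.630), and edgeR called 0 of 61926 transcripts (0%) in that fit, with an unadjusted p under 0.05 for 5243.

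At the transcript level, the fits against WT called 1 of 60528 transcripts (0.00165%) for rd10 DMSO and 1 of 62011 (0.00161%) for rd10 HAL, with no transcript of the 6 genes among them. Without W4 they called 15.5% and 20.9% of transcripts. Of the 33 tested transcripts of the 6 genes, Snhg11-201, Meg3-209, Meg3-208, Neat1-202 and Miat-201 were called higher in rd10 DMSO. Of the 32 tested against rd10 HAL, Snhg11-201, Meg3-205, Meg3-209, Rian-219 and Miat-201 were called higher. The fit of rd10 HAL against rd10 DMSO called 0 of 61926 transcripts (0%) by edgeR, the one tool run on transcripts, and 2316 had an unadjusted p under 0.05.

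The short Neat1-202, whose end carries the AATAAA shown above, was at 17.0, 15.7, 26.8 and 43.2 CPM in W1 to W4, at 46.7, 31.8 and 42.8 CPM in D1 to D3 and at 32.1, 24.4 and 34.3 CPM in H1 to H3. The long Neat1-201 was at 3.98, 3.28, 3.85 and 5.68 CPM in W1 to W4, at 3.36, 3.84 and 3.94 CPM in D1 to D3 and at 3.59, 3.60 and 2.87 CPM in H1 to H3. The short form was thus higher in every rd10 DMSO library than in W1 to W3, while the long form overlapped between all groups. All rd10 DMSO libraries lay above W1 to W3 for 16.6% of the tested transcripts. Without W4 the log2 fold change in rd10 DMSO was 1.12 for Neat1-202 (SE 0.25, adjusted p = 0.0336) and 0.09 for Neat1-201 (SE 0.20, adjusted p = 0.816). With W4 it was 0.69 for Neat1-202 (SE 0.39, adjusted p = 0.477) and -0.13 for Neat1-201 (adjusted p = 0.853), so the call of the short form and the sign of the long form both rest on leaving out W4. In rd10 HAL it was 0.70 (adjusted p = 0.0885) and -0.05 without W4 and 0.29 and -0.26 with it. These fits scaled the transcript counts by factors of their own. By CPM, which uses the factors of the gene table, the mean of Neat1-201 was 3.70 in W1 to W3 and 3.71 in rd10 DMSO.

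The ratio of short to long counts was 4.26, 4.78, 6.97 and 7.60 in W1 to W4, 13.9, 8.29 and 10.9 in D1 to D3 and 8.94, 6.76 and 11.9 in H1 to H3. The rd10 DMSO ratios lay above all WT ratios, the nearest being 8.29 in D2 and 7.60 in W4, and the rd10 HAL ratios overlapped them. How often ratios of other transcripts separate in this way was not examined. The difference between the forms was not tested. The long form receives no added poly(A) tail and rests on few counts, 64 to 153 per library. Of the Neat1 counts, 38.8% to 55.8% lay on transcripts that the reference does not name.

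**Figure D3:**
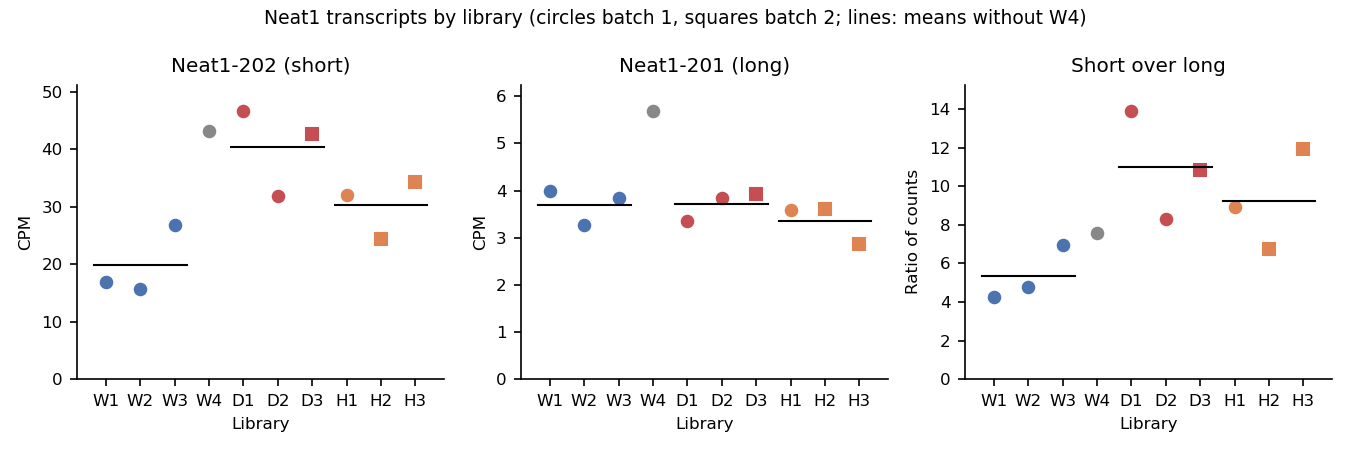
CPM of the short Neat1-202 and the long Neat1-201 and the ratio of their counts in each library, with circles for batch 1, squares for batch 2, W4 in grey and lines at the means without W4; axes start at 0. The short form reaches 46.7 CPM in D1 while the long form stays between 2.87 and 5.68 CPM in all 10 libraries.

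Meg3-209, Miat-201 and Snhg11-201, the transcripts with most counts of their genes, took the direction of the gene in both rd10 groups. Meg3-209 (14548 bases) had a log2 fold change of 0.66 in both rd10 groups without W4, Miat-201 (8758 bases) of 0.69 in rd10 DMSO and 0.73 in rd10 HAL, and Snhg11-201 (5864 bases) of 0.60 and 0.57. With W4 these were 0.41 and 0.42 for Meg3-209, 0.45 and 0.50 for Miat-201 and 0.42 and 0.40 for Snhg11-201, with adjusted p of 0.339 to 0.466. The minor Snhg11-205 was not called, at 0.26 in rd10 DMSO and 0.07 in rd10 HAL without W4 and at 0.13 and -0.06 with it. Without W4, Malat1-201 was at -0.18 in rd10 DMSO (adjusted p = 0.155) and at 0.05 in rd10 HAL (adjusted p = 0.684), where the gene was at -0.06, and with W4 it was at -0.21 and 0.04. The transcript fits had scaling factors of their own, while transcript CPM use those of the gene table, so the signs of small values can differ. By mean CPM Malat1-201 was at 1144 ± 84.8 CPM in W1 to W3, 947 ± 54.4 CPM in rd10 DMSO and 1110 ± 66.5 CPM in rd10 HAL. Rian-208 was at 0.12 and 0.31 and Rian-202 at 0.10 and -0.11 in rd10 DMSO and rd10 HAL without W4, with none of these called, while the gene Rian was called higher in both. With W4, Rian-208 was at 0.02 and 0.22 and Rian-202 at -0.07 and -0.27. The share of a gene's counts on its main transcript was compared between 6 rd10 and 4 WT libraries in 6 two-sided exact permutation tests, whose smallest possible p is 0.00952, and 0 of 6 had a p under 0.05. The share of Meg3-209 was 81.5% in rd10 and 79.9% in WT (exact permutation p = 0.0667), and without W4 the WT share was 79.4% (p = 0.0476). Malat1-201 held 75.0% and 73.2%, Neat1-202 42.4% and 45.1%, Miat-201 90.3% and 88.5%, Snhg11-201 75.8% and 73.3%, and Rian-208 13.2% and 15.2% in rd10 and WT (exact permutation p = 0.181 to 0.476).

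Other genes of the same regions and nuclear bodies were followed as lists, with counts from the fits without W4 (rd10 DMSO first, rd10 HAL second). As given above, 32.3% and 35.7% of all genes were called higher and 29.9% and 36.2% lower in these fits, and with library sizes alone 46.2% and 51% were called higher and 17.4% and 20.9% lower. With W4 kept, 0 genes of these lists were called in either comparison, and the genes named here kept their direction in rd10 DMSO with adjusted p of 0.187 to 0.915. In the Dlk1-Dio3 region 3 and 3 of 4 other genes were higher and 0 lower, with a median log2 fold change of 0.38 and 0.37, against a median of -0.01 over all genes. Begain, a postsynaptic protein gene, rose from 54.2 ± 5.28 to 93.1 ± 7.26 CPM in rd10 DMSO (log2 fold change 0.79, adjusted p = 0.000266), and Mirg, a microRNA host that lies beyond Rian, rose from 20.0 ± 0.641 to 28.3 ± 4.18 CPM (0.51, adjusted p = 0.00667). Of 24 other imprinted genes, 14 and 13 were higher and 4 and 5 lower, with medians of 0.28 and 0.26 (0.18 and 0.17 with W4). Peg10, a retrotransposon-derived gene, rose by 1.42 in rd10 DMSO and Inpp5f, an inositol phosphatase gene, by 0.75. The antisense noncoding RNAs Airn and Kcnq1ot1 fell by 1.16 and 0.39.

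Of 19 genes for proteins of paraspeckles, the bodies that Neat1 builds, 0 and 1 were higher and 12 and 13 lower, with medians of -0.29 and -0.24. The balance of these calls turned with the scaling, since with library sizes alone 5 and 6 were higher and 1 and 5 lower, with medians of -0.09 and -0.03 against 0.19 over all genes. Hnrnph3, an RNA-binding protein gene, fell by 0.88 in rd10 DMSO and Taf15 by 0.29, while Smarca4 (0.13, adjusted p = 0.391) and Nudt21 (0.01, adjusted p = 0.892) were not called. Of 17 genes of nuclear speckles and of proteins that bind these RNAs, 2 and 2 were higher and 10 and 10 lower, with medians of -0.27 and -0.18, and with library sizes alone 3 and 4 were higher and 5 and 6 lower. The splicing factors Srsf5 and Acin1 fell by 0.52 and 0.44 in rd10 DMSO, and the neuronal splicing regulator Celf3 rose by 0.64.

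Of 9 other small nucleolar RNA host genes, 1 and 1 were higher and 4 and 4 lower, with medians of -0.23 and -0.20, or -0.13 and -0.15 with W4 (-0.02 and 0.01 with library sizes alone, where 2 and 2 were higher and 2 and 1 lower). Snhg14 rose by 0.63 in rd10 DMSO (0.38 with W4), Snhg8 fell by 1.35 and Zfas1 by 0.40, and Snhg1 was at 0.01 (adjusted p = 0.974). Of 11 other long noncoding RNAs, 3 and 4 were higher and 5 and 6 lower, and with library sizes alone 5 and 5 were higher and 3 and 4 lower. Sox2ot, which overlaps Sox2, rose by 0.95 and Ftx by 0.44 (0.56 and 0.27 with W4), while Rncr4, a retinal noncoding RNA, fell by 4.11 and Vax2os, antisense to Vax2, by 2.58. In rd10 HAL against rd10 DMSO 0 genes of these lists were called.

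Cell type markers differed between the same libraries. Without W4, all 14 rod genes were lower in both rd10 groups, with medians of -3.21 and -3.08. The lists of amacrine (0.69 and 0.71), ganglion (0.45 and 0.49), bipolar (1.04 and 0.96), horizontal (1.08 and 1.09) and Müller glia genes (1.06 and 0.96) had medians above 0. With W4 these were 0.46 and 0.46, 0.26 and 0.34, 0.67 and 0.60, 0.67 and 0.67, and 0.66 and 0.57, in the same order. Müller glia genes summed to 4437 to 4619 CPM in W1 to W3, 9347 CPM in W4, 7780 to 9478 CPM in rd10 DMSO and 8738 to 9259 CPM in rd10 HAL. Gliosis genes had medians of 3.01 and 2.76, and microglia genes, of which 5 of 10 were in the table, 2.28 and 2.37. With W4 the medians were 1.63 and 1.65 for gliosis, 1.32 and 1.40 for microglia and -2.83 and -2.69 for rod genes, and no gene of these lists was called. The part of these cell types in the levels of the 6 genes was not tested.

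**Figure D4:**
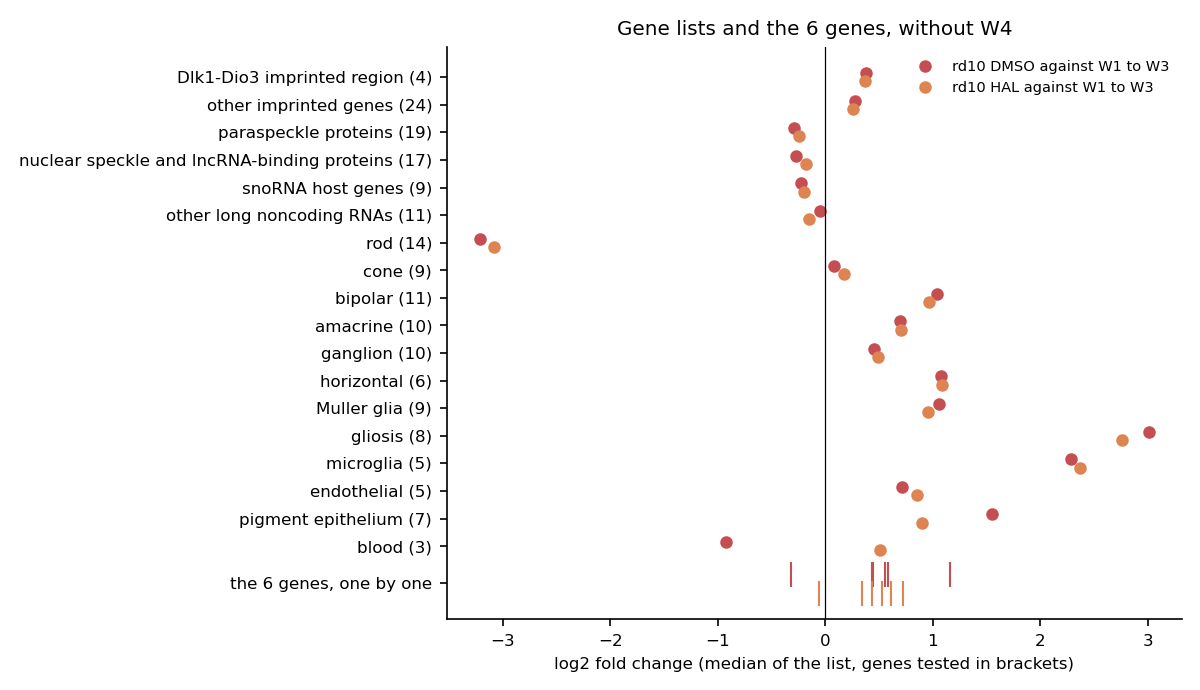
Median log2 fold change of each gene list (number of genes tested in brackets) against WT W1 to W3 in rd10 DMSO and rd10 HAL, with the 6 genes as single ticks at the bottom; the lens list, with 2 genes tested, is not drawn. The ticks other than Malat1 lie between 0.34 and 1.16, and the rod list lies at -3.21 and -3.08. The pigment epithelium list lies at 1.55 in rd10 DMSO and 0.90 in rd10 HAL, and its medians with W4 were 1.08 and -0.12.

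The genes varied together to different degrees. Over 10 libraries Pearson's r of log2 CPM was 0.98 for Meg3 with Rian, 0.97 for Meg3 with Snhg11, 0.96 for Miat with Snhg11 and -0.69 for Malat1 with Neat1. Within the 6 rd10 libraries these were 0.92, 0.90, 0.95 and -0.82. Neat1 and Meg3 had r of 0.82 over 10 libraries and -0.02 within rd10. The libraries share their group, batch and cell makeup, so these values only describe them. Among all genes tested, the patterns most like each member over the 10 libraries were Kcnt1 (r = 0.989), Cdc25b and BC030499 for Meg3, Aff2 (0.987), Gria2 and Dzip3 for Rian, Gm30725 (0.975), Zfp512b and Gria2 for Snhg11, and Armcx4 (0.983) and Ctps2 for Miat. They were Bphl (0.982), Slc4a4 and Tns1 for Neat1, and C130071C03Rik (0.925), Rbl2 and Znrd1 for Malat1.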

How the data were processed

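Per the labels and the study's methods, the authors prepared stranded libraries, quantified reads with kallisto against the Ensembl mouse transcriptome (GRCm39 in the submitters' processing notes) and summed them with tximport. They deposited estimated counts per transcript and per gene (51.4% of gene values are whole). Their deposited "CPM" values are gene counts divided by 1 factor per library, treated as a signal and used only in an alternative. Their deposited table of comparison statistics was not used.

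Estimated counts were rounded, filtered by filterByExpr, scaled by TMM and tested by edgeR's quasi-likelihood test with Benjamini-Hochberg adjustment over all features (R 4.3.3, edgeR 4.0.16, limma 3.58.1, DESeq2 1.42.0, Python 3.11.15, scipy 1.17.1). Log2 CPM used a prior count of 2. A member is called at an adjusted p under 0.05. Symbols matched 11492 of 11702 identifiers, and transcript names 133857 of 275112. The text names the 6 genes, at most 2 genes per list and direction by p in rd10 DMSO against WT with all libraries, the 3 most correlated genes (for Miat, a further gene is not reported here), and transcripts with on average at least 5% of a gene's counts; other transcripts are named where called. The members and lists were chosen with earlier results of these data known. Libraries of a group differed by a chi-square per gene of 4.48 to 431, so none was a copy. In simulated counts all features had the same low dispersion, batches did not differ and no library stood apart. With 200 features changed by a factor of 2, each comparison recovered 100% of changed genes (8 to 12 false calls) and 68.5% to 81% of changed transcripts (4 to 12 false calls). This says nothing about fits that hold W4, and does not cover features of larger spread or batch differences. Alternatives were DESeq2, limma-voom, limma-trend, other filters and scalings, batch terms and leaving out libraries.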

Additional observations from a re-analysis of the deposited data

Results flagged for a closer look

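The Meg3 level of the library labelled WT W4 stood apart from its group: its gap to the nearest WT library was 0.831 of the range of the 4 WT libraries (3300 CPM against 1957 to 2183 CPM). Rian stood apart in the same library, with a gap of 0.936 of the range (393 CPM against 281 to 288 CPM). Both gaps exceed Dixon's 95% critical value for 4 samples, that of Meg3 only just. The test was made on 13 sets of values of the 4 WT libraries, and chance gives such a gap in about 1 of 20 sets, or 0.65 of these 13. In the same library Pde6b was at 93.1 CPM against 2699 CPM or more in W1 to W3, and the part of that difference in these levels was not tested.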

How the results depend on the processing

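The members called against WT went from 0 to 6 for rd10 DMSO and from 0 to 5 for rd10 HAL over fits leaving out 1 library, and W4 was the library that gave the upper values. DESeq2 with all libraries called 1 in rd10 DMSO. Chosen after seeing the data, fits without W4 called 5 (library sizes alone), 6 (DESeq2) and 6 (batch 1 alone) for rd10 DMSO, 5 in each for rd10 HAL, and 6 and 5 with any further library left out. Called transcripts went from 0 to 5 against WT in both comparisons and from 0 to 1 between batches (without H1), and transcript shares under 0.05 from 0 to 1 (without W4 or H1, Meg3-209 each time). All genes called numbered 6154 to 8460 for rd10 DMSO and 7625 to 8414 for rd10 HAL in the added fits.

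Library sizes alone moved the median of all genes by 0.16 (rd10 DMSO) and 0.15 (rd10 HAL) against WT with W4 and by 0.21 in both without it, and turned Malat1 in rd10 HAL against WT from -0.04 to 0.11, or to 0.15 without W4. Small values changed sign elsewhere. Meg3 in HAL against DMSO turned to 0.0026 with batch as a term, and Neat1 between batches to 0.0173 (limma-voom) and 0.018 (limma-trend). Leaving out each replicate in turn gave, in HAL against WT, -0.0741 to 0.0028 for Malat1, in HAL against DMSO -0.08 to 0.0689 for Meg3, -0.0348 to 0.1188 for Miat and -0.0983 to 0.0793 for Snhg11, and between batches -0.17 to 0.1695 for Neat1, -0.1722 to 0.038 for Meg3, -0.0311 to 0.2165 for Miat, -0.0817 to 0.1877 for Snhg11 and -0.1479 to 0.0411 for Rian. The cause of these changes was not tested. Of the other fits of single genes 348 kept direction and call, and 110 kept direction and gained the call. The gained calls came from fits without W4, apart from that of Malat1 by DESeq2 with all libraries. No paired analysis was possible because the replicate numbers in the labels join no samples of different groups. With 3 or 4 libraries a group, exact tests between 2 such groups cannot go below 0.0571.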
